A study of Homo sapiens with 18 samples.

Results

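The profile described here is that of the human thyroid carcinoma cell line FTC-133 as seen on 3 of the 18 scans of a washing experiment, namely scans A3, B3 and C1. They are the first-series scans closest to the standard washing protocol, 1 for each of the 3 arrays, and were chosen by their titles. FTC-133 is an established line of a follicular thyroid carcinoma, and the cells had not been treated. RNA of 1 preparation was hybridized to 3 HG-U133 Plus 2.0 arrays (A, B and C), so the arrays repeat the hybridization and not the culture. Array C was processed by the standard protocol, with 6 stringent wash cycles before staining, and C1 is its first scan. Array A was stained after 0 stringent cycles, and A3 was scanned after 7 cycles that followed the staining. Array B was stained after 2 cycles, and B3 was scanned after 7 more, at a total of 9. By the total alone, scan B2, taken after 4 cycles, lies nearer to the standard 6 than B3 does, and it replaced B3 as an alternative. The 3 arrays were then stained again and washed by the same steps; scans A7 (a total of 24 cycles), B7 (28) and C2 (12) repeat the steps of A3, B3 and C1 in this second series.

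The values are MAS5 signals, 1 per probe set and scan on a linear scale, which the authors had scaled so that every scan has the same trimmed mean (250.02 to 250.06 over the 18 scans). A probe set is the group of short probes that reports 1 transcript or a part of it. Of 54675 probe sets, 41097 carry 1 gene symbol and cover 19775 genes. Each gene was represented by the probe set with the highest mean log2 signal on the 15 scans not described here. Genes were ranked within each scan, from rank 1 for the brightest, and ranks were turned into percentiles, with 100 for the brightest gene and 50 for the middle of all genes. A rank orders the brightness of probe sets. It does not order transcript abundance, since probe sets bind with different strength, and it has no replicate error of its own beyond the difference between the 3 arrays. The median signal of all genes was 162.0 on A3, 102.7 on B3 and 95.21 on C1.

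The cell of origin is the thyroid follicular cell, an epithelial cell that makes thyroglobulin, takes up iodide, and joins both into thyroid hormone under the control of thyrotropin. The transcription factors PAX8, NKX2-1, FOXE1 and HHEX act together in this cell type. Genes of translation, energy supply, protein folding and the cell cycle are active in any dividing line, and lines of thyroid cancers are known to lose much of the differentiated thyroid program in culture.

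In all, 1769 of 19775 genes lay in the top 10% on all 3 scans (8.95%), and 8194 genes lay in the lower 50% on all 3 (41.4%). A gene was said to rank alike if its highest and lowest percentile differed by at most 5 points, which held for 5972 genes (30.2%). Over 2 scans the share was 52.7% without A3, 44.6% without B3 and 46.4% without C1. A range of more than 25 points occurred for 3819 genes (19.3%). The genes with the best worst rank were COX1, TMSB4X, EEF1A1, COX2, RPL7 and RPL27, all within the first 11 ranks of every scan. COX1, a subunit of cytochrome c oxidase encoded by the mitochondrial genome, had signals of 25852 on A3, 41147 on B3 and 27839 on C1 and led B3 and C1. TMSB4X, the actin-binding peptide thymosin beta 4, had 27330, 36620 and 23625 in the same order and led A3. EEF1A1, the elongation factor that brings aminoacyl-tRNA to the ribosome, had 25495, 36490 and 25508, at ranks 5, 8 and 4. Signals of these genes were highest on B3. Their ranks lay within 10 places of each other on the 3 arrays, which their choice by worst rank ensures.

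Of the 100 genes with the best worst rank, 41 encode ribosomal proteins by their symbols, 4 lie on the mitochondrial genome, and the 100th had a worst rank of 121. All 100 ranked alike, but this follows from how they were chosen and is no separate result. Ranks of 121 or better on each scan, among 19775 genes, cannot differ by more than 5 percentile points. Of the 41 ribosomal proteins, 32 were in the list of cytosolic ribosomal proteins used below. Outside the gene lists used here stood 36 of the 100, other ribosomal proteins such as RPS21 and RPS4X included. Among the 36 was SKP1 (ranks 9, 24 and 37 on A3, B3 and C1), a subunit of SCF ubiquitin ligases. Another was HIF1A (ranks 12, 27 and 44), the oxygen-regulated subunit of the hypoxia-inducible transcription factor. TGFBI, an extracellular matrix protein, held ranks 46, 56 and 53. UBB, a ubiquitin precursor, held ranks 10, 25 and 17, and CKS2, a small partner of cyclin-dependent kinases, ranks 68, 106 and 121. FTH1P5, at ranks 11, 21 and 34, is a pseudogene of the ferritin heavy chain, and since its probes may also bind the near-identical parent transcript, its place is uncertain.

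**Figure D1:**
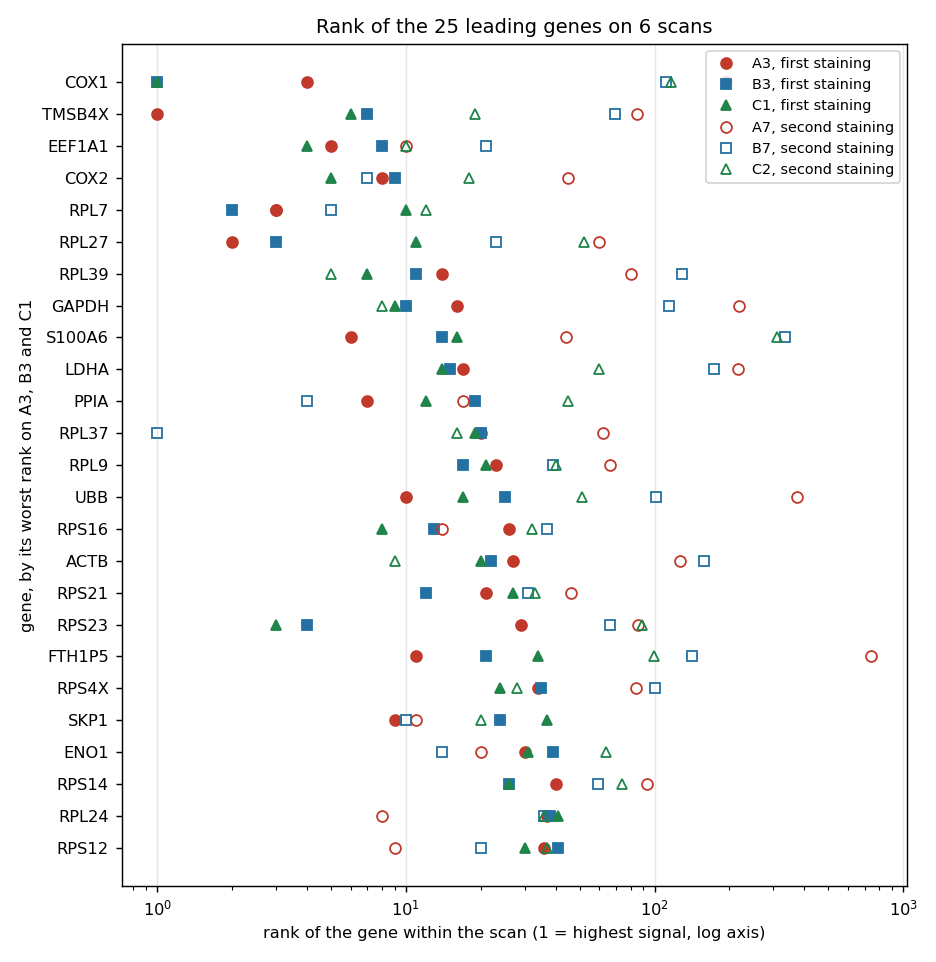
Rank within the scan (horizontal log axis, 1 is the highest signal) of the 25 genes with the best worst rank on A3, B3 and C1 (filled symbols), beside A7, B7 and C2 after the second staining (open symbols). Filled symbols stay within rank 41, whereas open symbols reach rank 745.

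Translation took the first place among the gene groups. The list of cytosolic ribosomal proteins, which does not hold all of them, had 38 measured genes. Of these, 37 lay in the top 10% on all 3 scans and 37 ranked alike, with list medians at percentile 99.7 on A3, 99.7 on B3 and 99.8 on C1. Their median range over the 3 arrays was 0.11 points. The exception in the list was RPLP2, an acidic stalk protein, whose probe set with 1 symbol read 157 on A3, 182 on B3 and 139 on C1 (percentiles 49.2, 60.6 and 55.6). Its other probe set with 1 symbol read 152, 2.22 and 47.8. RPL7 had signals of 26705, 40459 and 23038 (ranks 3, 2 and 10), RPL27 of 26985, 38989 and 22982, and RPS23 of 20036, 38540 and 25845. At the lower end of the other 37 stood RPS9 with 9860, 15839 and 11238 (percentiles 98.9, 98.9 and 99.1).

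Messenger RNAs of ribosomal proteins are known to begin with a tract of pyrimidines, the 5′ terminal oligopyrimidine motif, through which their translation is controlled. The bases around the annotated transcript start are shown for 6 ribosomal protein genes among those with the best worst ranks (4 with and 2 without the letters CTTTC), and for FN1 and VIM, the 2 leading mesenchymal genes. Each stretch runs 5′ to 3′ on the gene's strand, from 10 bases before the start through the first 20 transcribed bases, in RefSeq coordinates of build GRCh38.p14. Capitals mark CTTTC.
RPL27: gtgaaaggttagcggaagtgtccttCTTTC
RPL39: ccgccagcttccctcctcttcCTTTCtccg
RPL9: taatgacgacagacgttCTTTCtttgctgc
RPS16: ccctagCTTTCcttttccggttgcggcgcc
RPS29: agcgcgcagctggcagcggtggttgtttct
RPL6: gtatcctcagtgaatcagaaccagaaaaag
FN1: gcgctcggacgcccgcgccggctgtgctgc
VIM: atcgtgatctgggaggcccacgtatggcgc
These stretches lie at chr17:42998409-42998438 (plus strand) for RPL27, chrX:119791611-119791640 (minus) for RPL39, chr4:39458903-39458932 (minus) for RPL9 and chr19:39435930-39435959 (minus) for RPS16. Those without the letters lie at chr14:49598691-49598720 (minus) for RPS29, chr12:112411423-112411452 (minus) for RPL6, chr2:215436049-215436078 (minus) for FN1 and chr10:17228231-17228260 (plus) for VIM. CTTTC was found on the gene's strand in 19 of 34 listed ribosomal protein genes with a sequence (55.9%), against 606 of 15384 measured genes (3.94%). Among all genes in the top 10% on the 3 scans it was found in 5.66%, and in 4.14% of them once ribosomal proteins were left out. In genes of the lower 50% the share was 4.16%. On the opposite strand the letters occurred in 1 of the 34 (2.94%) and in 2.6% of all genes. The letters were chosen after the sequences had been seen, and a match is a description of these windows. A match anywhere in the window does not show that the transcript begins with a tract of pyrimidines.

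Of 17 translation factors, 13 lay in the top 10% on all 3 scans, where 8.95% of all genes lie. Of the 17, 15 ranked alike, beside 98.7% of all genes in the brightest decile by the other 15 scans. EIF1, which helps to select the start codon, had signals of 19750 on A3, 30676 on B3 and 20326 on C1, and the elongation factor EEF2 had 13905, 23236 and 14293. At the other end stood EIF4A2, a helicase of the initiation complex, whose only probe set with 1 symbol read 12.0, 33.9 and 6.46. EIF4E, which binds the cap of the messenger RNA, was placed at percentiles 91.6, 86.5 and 83.8. Dim readings of RPLP2 and EIF4A2 describe these probe sets, and other probe sets that carry several symbols were not used here.

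Genes of energy metabolism also ranked high. Of 18 glycolysis genes, 14 lay in the top 10% on all 3 scans, where 8.95% of all genes lie. The list medians were 96.7, 97.2 and 97.5 on A3, B3 and C1. GAPDH, which oxidizes glyceraldehyde 3-phosphate, had 21998, 34635 and 23064 (ranks 16, 10 and 9), and LDHA, which turns pyruvate into lactate, had 21246, 33327 and 22787 (ranks 17, 15 and 14). ENO1, PGK1 and LDHB also stood at percentile 99.6 or higher on each scan. Isoforms of 1 enzyme differed in place, without a common order by tissue. The neuronal enolase ENO2 lay at percentiles 64.0, 72.7 and 71.3 and the brain aldolase ALDOC at 26.5, 45.1 and 34.7, whereas the phosphofructokinases of muscle, PFKM (92.4, 93.1 and 93.4), and platelets, PFKP (94.6, 95.2 and 96.2), lay above the liver form PFKL (83.7, 72.4 and 72.0). Of the hexokinases, HK1 stood at 96.5, 97.0 and 96.9, while HK2 had signals of 81.1, 172 and 158 (percentiles 32.1, 59.7 and 57.3). HK2 was the 1 glycolysis gene with a range of more than 25 points. SLC2A1, the widespread glucose transporter, reached percentiles 91.8, 92.7 and 91.9.

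All 32 nuclear-encoded genes of oxidative phosphorylation ranked alike, and 29 of them lay in the top 10% on all 3 scans, where 8.95% of all genes lie. Most genes as bright as these ranked alike, 81.1% in the ninth decile by the other 15 scans and 98.7% in the tenth. ATP5F1A, the alpha subunit of ATP synthase, had 12723, 23426 and 16880 on A3, B3 and C1, and COX7C had 15227, 23076 and 12803. The lowest members were NDUFA9, SDHC and NDUFV1, none of which fell below percentile 88.4. Of the 7 genes measured from the mitochondrial genome, COX1, COX2, ND4, ATP6 and ND2 stayed at percentile 99.3 or higher on the 3 scans. ND6, a complex I subunit that is transcribed from the opposite strand to the others, had 908, 711 and 665 (percentiles 85.2, 81.8 and 79.0). COX3 differed between the arrays: its signal was 13960 on A3, 3226 on B3 and 1520 on C1, at ranks 108, 1167 and 2095. It is measured by 1 probe set with 1 symbol, so no second reading was at hand. The probes of this set may also bind other transcripts, so the signal may not be that of COX3 alone.

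Protein folding and breakdown were high throughout. Of 25 chaperone genes 23 lay in the top 10% on all 3 scans, and all 25 ranked alike. PPIA, the prolyl isomerase cyclophilin A, had 24500, 32922 and 22968 on A3, B3 and C1, the mitochondrial chaperonin HSPD1 had 18152, 28328 and 20832, and HSP90AA1 had 20064, 27888 and 16259. The lowest were PDIA4 and DNAJB1, both between percentiles 85.7 and 89.3. Of 25 proteasome genes 24 lay in the top 10% and all ranked alike. PSMC2, an ATPase of the regulatory particle, led with 13898, 25494 and 15766, and the ATPase PSMC4 was lowest at percentiles 86.7, 90.4 and 88.1. Of 17 lysosome genes, 12 lay in the top 10%, led by the membrane protein LAMP1 (13026, 23083 and 15498), whereas the protease CTSZ was placed at 52.7, 61.1 and 61.0.

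Cytoskeletal genes were bright with few exceptions. Of 25 genes, 22 lay in the top 10% on all 3 scans, where 8.95% of all genes lie. Among the 22 were ACTB (20081, 32724 and 21912 on A3, B3 and C1), TMSB10 (16548, 37425 and 26255) and the tubulin TUBA1B (17442, 32937 and 22847). Of the other 3, TAGLN read 176, 45.4 and 60.4, TPM2 read 24.8, 79.7 and 70.5, and the light chain MYL9 read 143, 182 and 15.6. All 3 had percentiles between 14.2 and 60.7, and TPM2 and MYL9 were 2 of the genes with a range of more than 25 points.

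Genes of cell division ranked high in RNA of this growing line. Of 32 proliferation genes, 21 lay in the top 10% on all 3 scans, where 8.95% of all genes lie, and 31 ranked alike. By the other 15 scans, 81.1% of all genes in the ninth decile and 98.7% in the tenth ranked alike. The list had medians of 94.4, 94.7 and 94.2 on A3, B3 and C1 and no member below percentile 74.0. TYMS, which makes thymidylate for DNA synthesis, had 17103, 30898 and 22342. The replication clamp PCNA had 8092, 10645 and 6479, the mitotic cyclin CCNB1 had 6998, 9802 and 7526, and the mitotic kinase AURKA had 5305, 8306 and 5487. The lowest were the kinases PLK1 (456, 523 and 608) and AURKB (608, 731 and 782) and the replicative helicase subunit MCM5 (754, 876 and 1033). MKI67, the antigen of the Ki-67 stain, was placed at 89.8, 88.0 and 88.2.

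**Figure D2:**
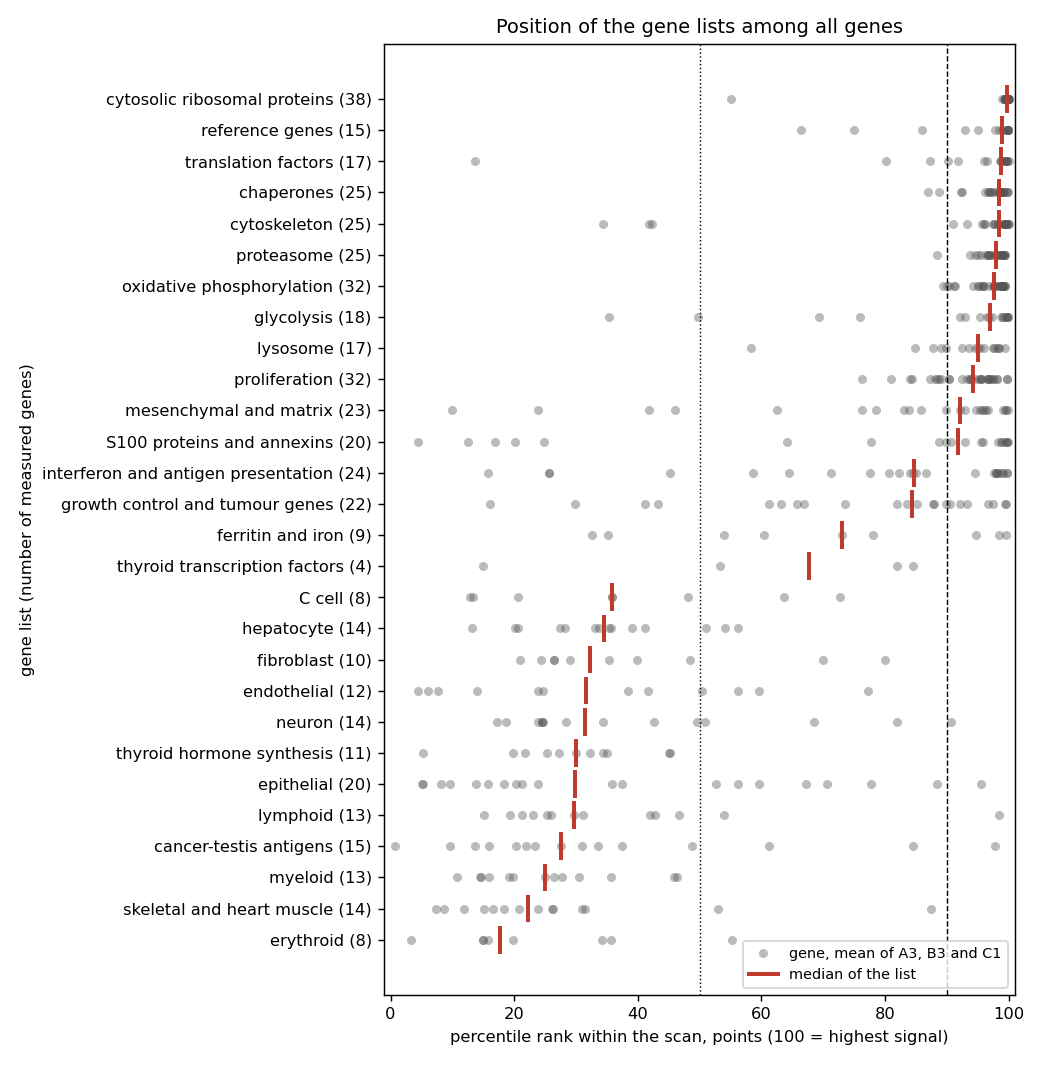
Percentile rank (horizontal axis, 100 is the highest signal) of each measured member of the gene lists as the mean of A3, B3 and C1 (grey points), with the median of each list (red bar); dotted and dashed lines stand at 50 and 90. Medians of the lists of housekeeping functions lie right of the dashed line, and those of other cell types left of the dotted line.

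The thyroid markers did not all bear out the label of the tissue. Of 4 thyroid transcription factors none lay in the top 10% on all 3 scans, where 8.95% of all genes lie. PAX8, a paired-box factor, had 1231 on A3, 876 on B3 and 757 on C1 (percentiles 88.7, 84.3 and 80.9). NKX2-1, the homeobox factor of thyroid and lung, had 656, 885 and 766 (percentiles 80.5, 84.4 and 81.0). HHEX, a homeobox factor of endoderm, had 96.9, 236 and 176 (36.2, 65.0 and 58.7), and the forkhead factor FOXE1 had 15.6, 5.09 and 39.9 (8.2, 3.8 and 32.9). The first pair was bright on every array. HHEX and FOXE1 each ranged over more than 25 points, and FOXE1 lay in the lower 50% on all 3 scans.

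PAX8 is read by 8 probe sets with 1 symbol, and its place rests on 1 of them. Among all 54675 probe sets the representing one stood at percentiles 93.9, 91.3 and 89.4, the next at 76.7, 75.4 and 74.5, and the other 6 at 68.4 or lower. For NKX2-1 both probe sets were above the middle, the dimmer at 78.1, 74.0 and 71.7.

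Of 11 genes of thyroid hormone synthesis none lay in the top 10% on all 3 scans, and 9 lay in the lower 50% on all 3. Of all genes, 8.95% and 41.4% lie there. TG, which encodes thyroglobulin, had 58.2, 84.6 and 40.7 on A3, B3 and C1 (percentiles 26.0, 45.6 and 33.3). TSHR, the thyrotropin receptor, had 22.6, 21.0 and 38.9 (12.8, 19.9 and 32.4), and SLC5A5, the iodide symporter, had 139, 69.3 and 87.7 (45.9, 40.9 and 48.7). SLC26A4, an apical anion exchanger, had 64.9, 5.55 and 28.7, and IYD, which recovers iodide, had 26.2, 2.39 and 1.43. The oxidase DUOX1 had 179, 49.3 and 4.04, its relative DUOX2 had 19.7, 57.8 and 41.6, and the maturation factor DUOXA2 had 82.2, 55.8 and 31.4. The deiodinases DIO1 (signals of 57.6, 32.7 and 23.4) and DIO2 (percentiles 35.2, 47.0 and 53.0) and the secreted peptide TFF3 (signals of 138, 14.6 and 61.8) completed the list. DUOX1 and DIO2 were the 2 genes outside the lower 50%, both through 1 scan only. DUOX1 passed percentile 50 only on A3, at 52.7, and DIO2 only on C1, at 53.0.

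Epithelial markers ranged from the top to the bottom of the profile. Of 20 genes 1 lay in the top 10% on all 3 scans, namely the keratin KRT7 with 3116, 4316 and 4124 on A3, B3 and C1, and 11 lay in the lower 50%, where 8.95% and 41.4% of all genes lie. The place of KRT7 rests on 1 of its 4 probe sets, and the next brightest read 401, 192 and 178. The keratins of simple epithelia KRT18 (1181, 1340 and 1408) and KRT8 (581, 617 and 514) followed. MUC1 (326, 381 and 426), the tight junction genes CLDN1 (278, 294 and 362) and OCLN (149, 246 and 277), and EPCAM (188, 120 and 214), an adhesion protein of most epithelia, lay between percentiles 47.9 and 72.5. CDH1, which encodes E-cadherin, had 37.5, 17.4 and 22.6 (percentiles 19.6, 17.7 and 23.7), and the claudin CLDN7 had 15.3, 4.64 and 4.13. KRT19, a keratin of many gland cells, had 5.46, 9.72 and 4.59. Both probe sets of CDH1 stood at percentile 38.9 or lower among all probe sets.

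Mesenchymal and matrix genes had higher list medians. Of 23 genes, 12 lay in the top 10% on all 3 scans, where 8.95% of all genes lie, with medians of 92.5, 92.5 and 91.4. FN1, which encodes fibronectin, had 18827, 37173 and 21881 on A3, B3 and C1 (percentile 99.8 or higher on each). VIM, the intermediate filament vimentin, had 15048, 26569 and 18362, the calcium-binding S100A4 had 12840, 24313 and 17189, and the matrix protein POSTN had 12029, 18367 and 10796. CDH2, which encodes N-cadherin, had 2353, 2886 and 1916 (percentiles 93.8, 93.6 and 91.4), and its other probe set read 241, 240 and 434. The factors ZEB1 (723, 852 and 1114), SNAI2 (843, 690 and 906) and TWIST1 (483, 485 and 604), which can repress E-cadherin, lay between percentiles 75.1 and 86.0. Collagens differed among themselves, with COL1A2 at 4545, 5471 and 4618 but COL1A1 at 189, 233 and 347. The fibroblast proteoglycan DCN had 7.86, 49.7 and 45.8, and COL6A3 had 20.1, 6.31 and 9.12.

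**Figure D3:**
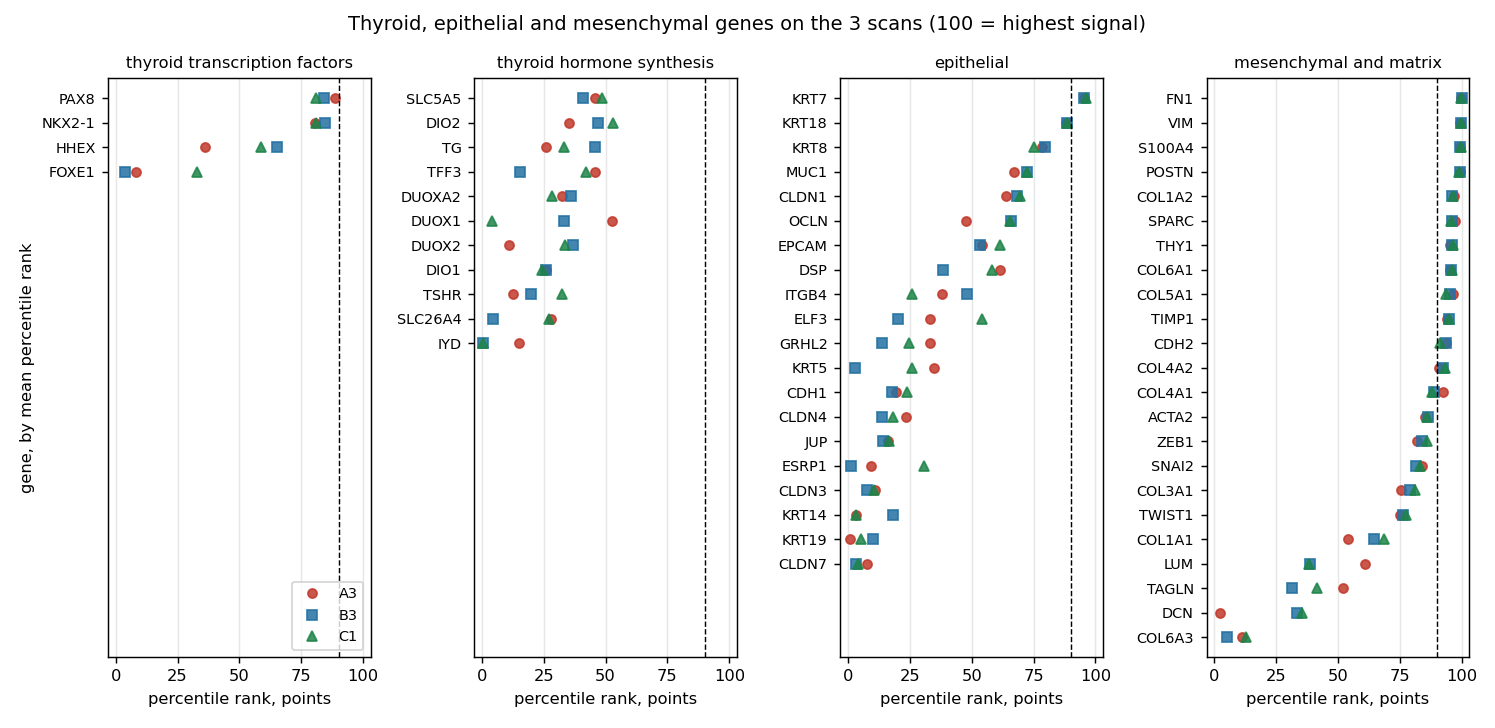
Percentile rank (horizontal axes, 100 is the highest signal) of each measured thyroid, epithelial and mesenchymal gene on scans A3, B3 and C1; the dashed line stands at 90. PAX8 and NKX2-1 lie between 80.5 and 88.7 on the 3 scans, hormone synthesis genes lie at 53.0 or lower, and FN1, VIM, S100A4 and POSTN lie at 99.1 or higher.

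Of 22 genes of growth control and tumours, 7 lay in the top 10% on all 3 scans, where 8.95% of all genes lie. CD44, the hyaluronan receptor, had 19108, 24620 and 13601 on A3, B3 and C1, and LGALS3, a galectin used as a marker of thyroid carcinoma, had 14479, 21927 and 13284. MET, the receptor of hepatocyte growth factor, had 4528, 8914 and 6072. The cell cycle inhibitors CDKN2A (4241, 5821 and 5056) and CDKN1B (2049, 2122 and 1929), the pocket protein RB1 (3069, 2590 and 1876) and the Wnt effector CTNNB1 (1522, 1628 and 1727) completed the 7. The other probe set of RB1 read 84.4, 6.79 and 14.4.

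Between percentiles 80 and 92 lay CCND1 (1252, 1434 and 1897), HMGA2 (1149, 1249 and 1290), MYC (972, 1324 and 1423), AKT1 (1045, 883 and 972), EGFR (824, 778 and 944) and HRAS (657, 758 and 877), which drive growth, chromatin binding and signalling. ERBB2 (452, 481 and 385), PPARG (278, 233 and 425), DPP4 (290, 238 and 313), MDM2 (298, 224 and 192) and CDKN1A (276, 183 and 187) stood between 59.5 and 76.2. RET, a receptor kinase that is rearranged in some papillary carcinomas, had 125, 70.1 and 73.8, and TERT, the catalytic subunit of telomerase, had 148, 66.4 and 46.6. Together with NF1 (143, 7.44 and 46.4) and the thyroid carcinoma marker CITED1 (9.14, 5.35 and 58.2), these 4 lay in the lower 50% on all 3 scans. NF1 and CITED1 also ranged over more than 25 points, and NF1 is read here by 1 probe set with 1 symbol.

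Interferon-induced genes were among the brightest. IFIT3, an antiviral RNA-binding protein, had 22117 on A3, 31765 on B3 and 19134 on C1 (percentiles 99.9, 99.9 and 99.8), and its other probe set stood at 99.1, 99.2 and 99.3 among all probe sets. ISG15, a ubiquitin-like modifier, had 10788, 16861 and 12753. IFIT1, IFI27, IFI44 and IFITM3 lay between percentiles 97.6 and 98.5. Of the 24 interferon and antigen presentation genes, 10 lay in the top 10% on all 3 scans, where 8.95% of all genes lie. Of the 24, 19 ranked alike, beside 30.2% of all genes and 81.1% of those in the ninth decile by the other 15 scans. Class I presentation was bright, with B2M at 20128, 30454 and 20529 and HLA-C at 8371, 18480 and 10410. The class II genes HLA-DRA (39.8, 14.1 and 8.03), HLA-DPA1 (72.3, 31.0 and 19.3) and the invariant chain CD74 (92.2, 35.2 and 10.7) lay in the lower 50%, and HLA-DRB1 (175, 72.1 and 60.6) stood at percentiles 52.1, 41.9 and 41.6. OAS1, which senses double-stranded RNA, had 215, 164 and 181 and IRF1 had 315, 209 and 251, so not every gene of this kind was near the top.

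S100 proteins and annexins spread over the whole range, with 10 of 20 in the top 10% on all 3 scans, 5 in the lower 50%, and others such as ANXA6 (percentiles 88.7, 88.0 and 89.7) and ANXA3 (53.0, 70.9 and 68.4) between them. Of all genes, 8.95% lay in the top 10% and 41.4% in the lower 50% on all 3 scans. S100A6 had 25107, 33348 and 22561 (ranks 6, 14 and 16 on A3, B3 and C1), S100A10 had 18363, 32520 and 20538, and its partner ANXA2 had 17197, 25777 and 17856. S100A9, S100A8 and S100B, known from myeloid and neural cells, stayed at percentile 37.8 or lower. Of 9 iron genes, 3 lay in the top 10%, namely the ferritin light chain FTL (15064, 26084 and 17635), the transferrin receptor TFRC (8258, 12032 and 7690) and the haem oxygenase HMOX1 (2650, 3690 and 3502). Of 15 genes often used as references in expression work, 12 lay in the top 10% and 14 ranked alike. Of all genes in the brightest decile by the other 15 scans, 98.7% ranked alike. GUSB was placed at 85.4, 86.4 and 86.3, TBP at 72.8, 76.0 and 76.3, and POLR2A at 68.3, 68.3 and 62.8.

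Many but not all markers of cell types that a culture of this line should lack were dim. Few lay in the top 10% on all 3 scans, where 8.95% of all genes lie. Lists of 8 to 14 genes are too short to tell their shares from that one. In the lower 50% on all 3 scans, where 41.4% of all genes lie, were 7 of 13 lymphoid, 12 of 13 myeloid, 8 of 12 endothelial, 8 of 14 hepatocyte, 6 of 8 erythroid, 6 of 10 fibroblast, 8 of 14 neuronal, 12 of 14 muscle and 4 of 8 C cell markers. Of 13 lymphoid markers 1 lay in the top 10% on all 3 scans. This was IL7R, the receptor chain for interleukin 7, with 7045 on A3, 12971 on B3 and 9142 on C1, out of summed lymphoid signals of 8331, 13630 and 9653. Its second probe set stood at 98.7, 98.8 and 98.8 among all probe sets. The defining lymphoid genes CD3D (26.3, 62.8 and 19.9), CD3E (14.4, 37.1 and 42.6) and PTPRC (36.9, 62.6 and 1.42) all lay in the lower 50%. None of the 13 myeloid, 12 endothelial, 14 hepatocyte, 8 erythroid or 10 fibroblast markers lay in the top 10% on all 3 scans, and their list medians ranged between percentiles 18.2 and 45.7. Their summed signals on A3, B3 and C1 were 805, 659 and 348 for myeloid, 1694, 1233 and 1046 for endothelial, 2044, 728 and 636 for hepatocyte, 570, 315 and 256 for erythroid and 1863, 1323 and 1341 for fibroblast markers, and no signal was 0. Among endothelial markers ENG (percentiles 78.4, 78.8 and 74.7) and PECAM1 (66.2, 60.1 and 52.5) stood above the middle. Among neuronal markers SYT1, a calcium sensor of synaptic vesicles, lay in the top 10% (1511, 1643 and 1901), followed by NEFL (604, 760 and 957), while SYP, RBFOX3 and DCX stayed at 41.1 or lower. The other probe set of SYT1 read 277, 247 and 408. Of muscle markers the cardiac actin ACTC1 was brightest with 1346, 916 and 1303 (percentiles 89.6, 84.8 and 87.8). Among C cell markers, which tell the other endocrine cell of the thyroid, CALCB (382, 494 and 403) and CALCA (252, 205 and 309) stood above the middle and CHGA (33.2, 8.10 and 8.76) below. Fibroblast activation protein FAP had 672, 583 and 718. The part of other cells in any of these signals was not tested.

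Cancer-testis antigens are restricted to germ cells in healthy tissue. Of 15 such genes 1 lay in the top 10% on all 3 scans (6.67%), near the 8.95% of all genes. MAGEA6 had 9915 on A3, 7107 on B3 and 5198 on C1 (percentiles 98.9, 97.2 and 97.2), and MAGEA10 had 763, 858 and 1204. PRAME (18.3, 12.8 and 4.69) and MAGEA4 (26.0, 3.53 and 36.8) were dim. MAGEA6 is read by 1 probe set with 1 symbol, whose probes may also bind transcripts of close relatives in the MAGEA family, and its identity is therefore uncertain.

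Genes that do not encode proteins were dim as a class. Of 2644 long non-coding RNA genes 6 lay in the top 10% on all 3 scans (0.227%), and 78.3% lay in the lower 50% on all 3. Of all genes, 8.95% and 41.4% lie there. Of 16504 protein-coding genes, 1758 (10.7%) lay in the top 10% and 34.4% in the lower 50%. The 6 were MALAT1 (9678, 13589 and 8759 on A3, B3 and C1), ZFAS1 (8148, 13301 and 9414), SNHG32 (5292, 8564 and 5953), CHASERR (2918, 3667 and 2762), NORAD (1765, 1807 and 2289) and COLCA1 (1497, 2121 and 1753). MALAT1 is a nuclear RNA of speckles, ZFAS1 and SNHG32 host small nucleolar RNAs, and NORAD binds PUMILIO proteins. ANXA2P2, PDCD6P1, NACA4P and the entry MIR1244-3, also in the top 10%, are read by probe sets that can bind near-identical transcripts of other genes and are uncertain. The probe sets of ZFAS1 and COLCA1 may likewise bind other transcripts.

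Agreement between the arrays depended on the level. Over all 19775 genes, Spearman's rho between scans was 0.879 for A3 and B3, 0.879 for A3 and C1, and 0.906 for B3 and C1. Genes are not independent replicates, so these values describe the scans. Among genes in the upper 50% by the other 15 scans rho was 0.939, 0.928 and 0.972, and in the lower 50% it was 0.407, 0.413 and 0.487. By decile of the other scans, the share of genes that ranked alike was 98.7% in the brightest decile, 81.1% in the next, 49.9% in the eighth and 26.9% in the seventh. Between the second and the fifth decile it lay between 3.74% and 5.61%, and it was 16.1% in the dimmest. Bright genes lie farther apart in signal, so the same points span a larger fold there. The counts of like rank in lists of bright genes should be read beside these shares and not beside 30.2% alone.

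**Figure D4:**
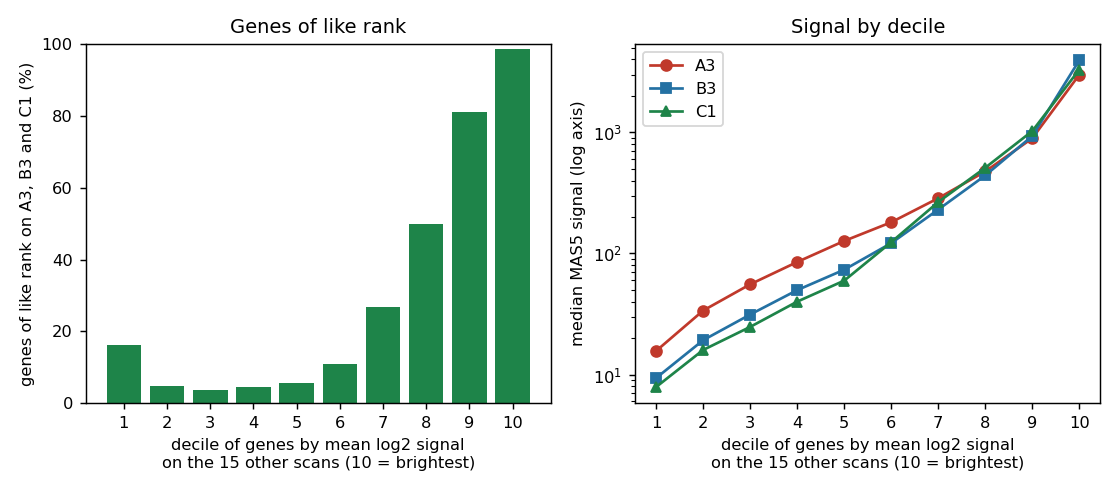
Left, share of genes whose percentiles on A3, B3 and C1 differ by at most 5 points (vertical axis, %), by decile of the mean percentile on the 15 other scans. Right, median MAS5 signal (log axis) of the same deciles on each scan. The horizontal axis label names the mean log2 signal, but the deciles were formed from the mean percentile. The share is 98.7% in decile 10 and 3.74% in decile 3, and A3 lies above B3 and C1 in deciles 1 to 7.

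The dim deciles also differed in signal, with medians in the fifth decile of 127 on A3, 73.4 on B3 and 59.6 on C1, and in the tenth of 2988, 3929 and 3291. Among 151 far apart genes with a mean percentile over 50, A3 was most often the scan farthest from the middle one of the 3, above the other scans in 31 genes and below them in 79. For B3 these counts were 1 and 17, and for C1 they were 1 and 22. A mean over 50 favours genes with 1 low scan, so the excess below follows in part from that filter. Over all 3819 far apart genes, A3 stood above in 801 and below in 818. The same counts were 514 and 577 for B3, and 495 and 614 for C1. Genes farthest above on A3 were WNT6, FMN1, EPOR and SLC39A5. WNT6 read 555 on A3, 85.1 on B3 and 40.0 on C1, FMN1 read 555, 85.8 and 99.9, EPOR read 1203, 204 and 170, and SLC39A5 read 468, 79.2 and 97.5. Farthest below on A3 were IFFO2 (37.6, 327 and 340), TRAF3IP2 (39.2, 265 and 315), AAAS (41.3, 244 and 306) and STK40 (38.7, 321 and 218). On B3, SLC34A3 stood above (108, 360 and 131) and SLC11A1 (405, 26.9 and 189) and PCSK1N (312, 35.5 and 234) below. On C1, HSF1 (129, 75.5 and 340) stood above and MVB12B (418, 205 and 20.6) and DPP9 (554, 281 and 34.8) below.

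Part of these gaps came back after the arrays had been stained again. The gap in percentile between A3 and B3 had a correlation of 0.331 (Pearson) and 0.316 (Spearman) over genes with the gap between A7 and B7. For A3 and C1 against A7 and C2 these values were 0.361 and 0.359, and for B3 and C1 against B7 and C2 they were 0.219 and 0.211. Both gaps of each pair come from the same 2 hybridizations, and no p is given. Of 2043 genes with a gap of more than 25 points between A3 and B3, 73.0% had a gap of the same sign after the second staining, and the shares were 74.7% of 2008 genes for A3 and C1 and 65.7% of 1573 genes for B3 and C1. WNT6, FMN1 and EPOR read 555, 555 and 1203 on A3, against 584, 553 and 1246 on A7, and stayed above arrays B and C, while SLC39A5 read 468 on A3, against 193 on A7. Of the genes farthest below, TRAF3IP2 read 39.2 on A3, against 48.7 on A7, whereas IFFO2, AAAS and STK40 read 37.6, 41.3 and 38.7 on A3, against 281, 258 and 278 on A7.

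Over all scans, 543 genes had a higher percentile on every scan of array A than on any scan of arrays B and C (2.75%), and 633 had a lower one on every scan of array A (3.2%). COX3, EPOR, WNT6, FMN1 and PAX8 were in the first set. COX3 lay between 8034 and 16950 on the 8 scans of array A, between 3139 and 7300 on the 8 of array B, and at 1520 and 3332 on array C. EPOR lay between 873 and 1407 on array A, against 132 to 404 on array B and 170 to 247 on array C. For EPOR the bright reading came from 1 of 5 probe sets, and this one, like that of COX3, may also bind other transcripts. PAX8 lay between 941 and 1310 on array A, 728 and 924 on array B, and 750 and 757 on array C. Array and washing order cannot be told apart, since each array followed 1 protocol.

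**Figure D5:**
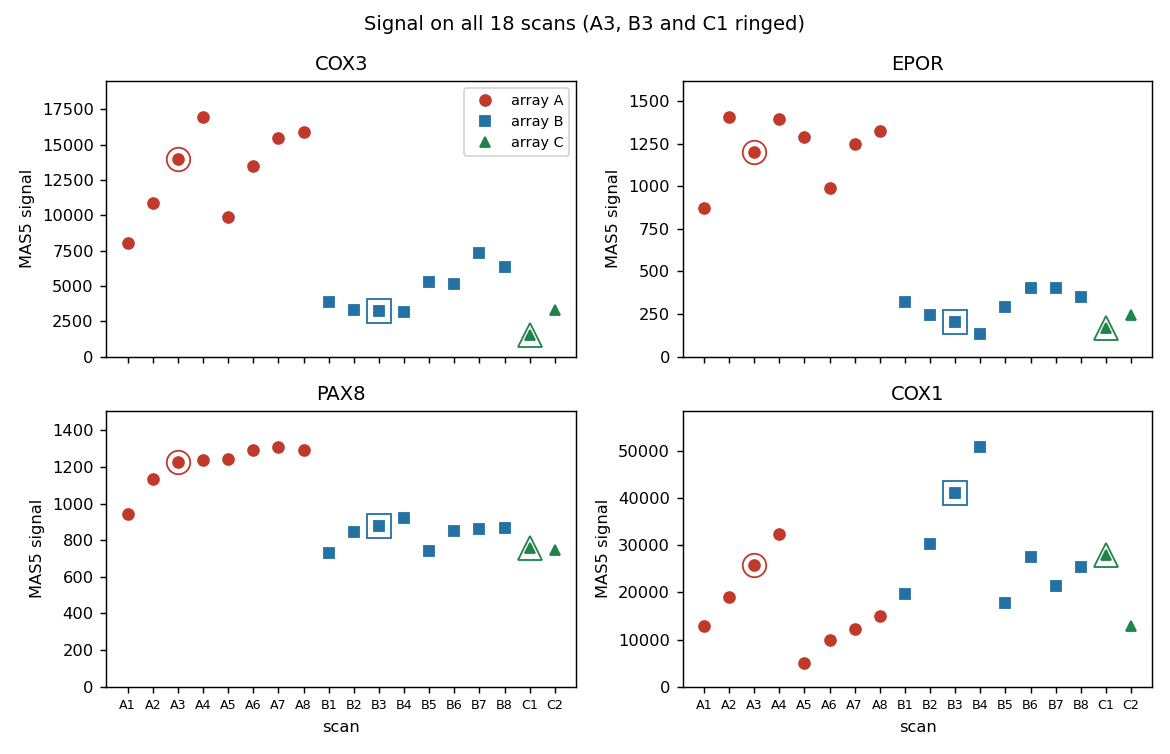
MAS5 signal (vertical axes, from 0) of COX3, EPOR, PAX8 and COX1 on all 18 scans (horizontal axis), coloured by array, with A3, B3 and C1 ringed; scans A1 to A4, B1 to B4 and C1 follow the first staining. The 8 scans of array A lie above the others for COX3, EPOR and PAX8, whereas COX1 is lower after the second staining at the matching wash step.

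Scans of the same array were not always the closest in rank. A3 had a rho between 0.855 and 0.941 with the other first-series scans of array A and between 0.901 and 0.915 with those of its second series, against 0.879 with B3 and C1. For B3 the ranges on array B were 0.939 to 0.949 and 0.918 to 0.923, against 0.879 and 0.906 with the 2 other near-standard scans. C1 had 0.925 with C2, its repeat after the second staining, and between 0.791 and 0.926 with the other scans of arrays A and B, so that its closest scan was one of another array.

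To ask whether the ranks moved with the staining, A3, B3 and C1 were compared with A7, B7 and C2 by limma on normal scores of the ranks, with the array as a block. No gene passed a Benjamini-Hochberg adjusted p of 0.05 in either direction (0%, 0 higher and 0 lower of 19775), and the smallest adjusted p was 0.716. At an unadjusted p under 0.05, 594 genes ranked higher and 605 lower after the first staining. On simulated data the same fit recovered 0% of changes of 0.5 and of 1 normal score units and 66% of changes of 2 units, so differences of 1 unit or less were not detectable with this fit. Staining and the larger number of wash cycles before the second series cannot be told apart.

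The leading 25 genes are those chosen for their ranks on A3, B3 and C1, and lower ranks elsewhere follow in part from that choice. Within that limit, 13 of the 25 had a lower rank after the second staining on each array, and 1, RPL24, on none. The paper also reports that some probes, a small fraction, saturated the scanner after the second staining and none after the first. The part of such saturation in these ranks was not tested. COX1 had ranks 4, 1 and 1 on A3, B3 and C1, against 193, 111 and 116 on A7, B7 and C2, a difference of 1.43 ± 0.10 normal score units (SE, limma, adjusted p = 0.716). S100A6 had ranks 6, 14 and 16, against 44, 335 and 311 (difference 0.90 ± 0.13, limma, adjusted p = 0.716). LDHA had ranks 17, 15 and 14, against 216, 173 and 60 (difference 0.70 ± 0.11, limma, adjusted p = 0.746). With a variance trend and robust moderation, COX1, S100A6 and LDHA were called higher and TPM1, a tropomyosin, lower after the first staining. The adjusted p in that fit was 2.7e-05 for COX1, 0.0076 for S100A6, and 0.016 for both LDHA and TPM1. TPM1 had 14500, 22694 and 13224 on A3, B3 and C1, against 18906, 27028 and 19585 on A7, B7 and C2. Of the 100 genes with the best worst rank, 84 were within rank 200 on all 3 scans of the second staining.

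The place of a gene also depended on the probe set that read it. Of 10523 genes with more than 1 probe set, the median span in percentile between probe sets of a gene was 28.8 points, and 5849 genes (55.6%) spanned more than 25 points. The median range of a single probe set over the 3 scans was 14.6 points. Of 2478 genes with a probe set in the top 10%, 1114 (45.0%) had another in the lower 50%. FN1 shows both ends, with 4 of its 7 probe sets between 15314 and 18987 on A3 and the other 3 between 218 and 424. VIM is read by 1 probe set at 15048, 26569 and 18362 and by another at 85.9, 65.1 and 121 on A3, B3 and C1. A dim gene may therefore be one whose probe sets bind poorly, and a high place is better supported where several probe sets share it, as for IL7R and IFIT3.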

How the data were processed

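RNA of untreated FTC-133 cells (1 preparation) was measured on 3 HG-U133 Plus 2.0 arrays in 18 scans. The authors deposited MAS5 signal values per probe set, scaled per scan; the version of MAS5 is not given in the sources used here. The deposited signal has no counts, so depth is unknown, and precision is limited by the 3 arrays. No 2 scans held identical values. Probe sets were named through GEO's platform annotation, where 41097 have 1 symbol, 1801 several and 11777 none. For 41043 of the 41097 probe sets the gene identifier was found in RefSeq, which changed 0 symbols. Some genes were not analysed here.

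Ranks, percentiles and counts were computed in Python 3.11.15 (numpy 2.4.6, pandas 2.3.3, scipy 1.17.1, matplotlib 3.10.9). The staining comparison used limma 3.58.1 in R 4.3.3, fitted over all 19775 genes at an adjusted p of 0.05, and was tested on simulated data with 200 changed genes, where 7 unchanged genes were called at the largest size. The array pairs the scans, since a scan of each series comes from the same hybridization.

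The members and gene lists were chosen with earlier results of these data known. Named genes are the 25 with the best worst rank, up to 5 highest and 3 lowest members of each list, all thyroid and growth control genes, and per scan the 4 genes farthest above and below the others; those added after their values were seen include HIF1A, SKP1, TGFBI, UBB, CKS2, the mitochondrial and non-coding genes and the probe sets compared. Alternatives were other choices of probe set, scan, threshold and scaling, and leaving out each array.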

Additional observations from a re-analysis of the deposited data

How the results depend on the processing

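The share of genes in the top 10% on all 3 scans lay between 8.78% and 8.98% under other choices of probe set or scan and between 9.15% and 9.46% without 1 of the scans. With a threshold at the top 5% it was 4.48%, and at the top 20% it was 17.9%. The share of genes of like rank lay between 22.9% and 34.3% under those choices, at 14.2% with 2 points, 48.8% with 10 points and 9.16% with log2 signals less the scan's median and a range of at most 0.5, and between 44.6% (without B3) and 52.7% (without A3) over 2 scans, with 46.4% without C1. Spearman's rho for A3 and B3, A3 and C1, and B3 and C1 was 0.817, 0.825 and 0.859 with the mean percentile of all probe sets of a gene, 0.779, 0.779 and 0.816 with all probe sets ranked, and 0.936, 0.926 and 0.97 with only the brighter genes. The other 7 values moved by less than the spread of the 3 pairs. With no replicate block the staining comparison called 0 genes higher and 0 lower (359 and 347 at an unadjusted p under 0.05), as did the other alternatives, leaving out each pair included (0 to 0). The exception was the variance trend with robust moderation, with 3 and 1. Of 28 list medians, 21 moved by more than their spread over the scans with the mean percentile of all probe sets, by -17.1 to 9.8 points. Lists that fell below 90 were translation factors (98.8 to 89.6), glycolysis (97.1 to 89.8) and reference genes (98.9 to 88.2). So did mesenchymal and matrix genes (92.2 to 82.4) and S100 proteins and annexins (91.8 to 81.6). Interferon and antigen presentation genes rose from 84.7 to 90.8. B2 in place of B3 moved 2, and C1's brightest probe set moved 1. No outlier check was made, since groups of 3 scans are too small for it.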
